A study of Mus musculus with 6 samples.

Results

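Contacts of the X-inactivation centre on the mus allele were compared between mouse embryonic stem cells depleted of Jpx RNA and their controls at day 7 of differentiation. The comparison used 4 of the 6 libraries of the study and 2 of its 7 maps, namely the mus map of the depleted cells and the mus map of the control cells, each combining 2 libraries. The cells were female, from a CAST/EiJ x 129S1 cross, which carries 1 X chromosome of each parent, and mus is read here as the 129S1 chromosome and cas as the CAST/EiJ chromosome from those names. They had been differentiated through embryoid bodies for 7 days. Both groups were then transfected with a locked nucleic acid (LNA), a chemically stiffened oligonucleotide that pairs with RNA, which was scrambled in sequence in the control and matched Jpx in the depleted group, and were harvested 8 hours later. Cells of day 0 and day 4, never transfected, served only as a measure of scale. The level of Jpx RNA, the level of Xist RNA and which X chromosome was inactive appear in none of the files or labels used here, so the strength of the depletion is not known.

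The X-inactivation centre is the stretch of the X chromosome from which silencing of 1 X in female cells starts. Xist, a long noncoding RNA, coats the chromosome to be silenced, and Tsix, transcribed through Xist from the opposite strand, holds Xist back. The region is known to fold into neighbouring domains whose border runs through the Xist and Tsix locus, so that the Xist promoter shares a domain with its activators Jpx, Ftx and Rlim, while the Tsix promoter shares the other with Tsx, Chic1, Cdx4 and Nap1l2. Jpx is a noncoding RNA gene beside Xist whose RNA is known to bind CTCF, a protein that anchors such borders. The title of the study names a reorganization of the centre in space by Jpx RNA. It gives no allele and no size of change, and no further claim was available here to set beside the values.

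The contacts were read in DNA cut with MboI, which recognizes GATC, ligated within the nucleus and pulled out with probes, nearly all of which lie near such a site. The promoter windows used below hold 43, 34 and 23 probes for Xist, Jpx and Tsix. As an example, the probe nearest each of these 3 promoters is shown with the stretch to its nearest site, which is in capitals. All are the plus strand of mm9. That of Xist (chrX:100678469-100678592) holds the annotated start of Xist at 100678556, in its first exon and in an exon of Tsix. That of Jpx (chrX:100688558-100688765) lies in no annotated gene, and its probe ends 130 bases before the start of Jpx. That of Tsix (chrX:100627365-100627591) lies in an intron of Tsix, and its probe begins 509 bases past the start.
Xist promoter: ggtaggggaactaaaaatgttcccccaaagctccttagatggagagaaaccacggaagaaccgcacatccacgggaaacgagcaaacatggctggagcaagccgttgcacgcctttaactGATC
Jpx promoter: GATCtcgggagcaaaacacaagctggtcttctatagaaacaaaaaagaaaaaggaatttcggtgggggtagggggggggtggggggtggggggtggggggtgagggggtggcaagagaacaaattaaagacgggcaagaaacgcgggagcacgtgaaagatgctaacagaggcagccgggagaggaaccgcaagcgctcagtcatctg
Tsix promoter: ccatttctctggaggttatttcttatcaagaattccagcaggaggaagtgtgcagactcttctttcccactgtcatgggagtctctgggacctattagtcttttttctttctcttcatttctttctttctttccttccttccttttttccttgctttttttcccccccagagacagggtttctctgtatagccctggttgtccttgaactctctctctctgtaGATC

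The maps gave a value to each pair of 210 bins of 5 kb from X 100215001 to 101265000. Whole contacts could be recovered from the deposited values, and at separations of 10 kb or more the control map held 24790 contacts and the depleted map 21057, which is 15.1% fewer. These were spread over 21736 bin pairs, of which 56.9% held no contact in the control, 60.8% none in the depleted map and 43.6% none in either. A level below is the mean signal of a set of bin pairs divided by the mean of the same map at equal separation, so that 1 is the average contact. A change is the log2 ratio of the depleted over the control level, with a 95% interval for counting error. Since each condition was 1 combined map, the spread between libraries could not be estimated and no p-value is given. A change is called higher or lower only where its interval excludes 0, copies made by PCR narrow the interval wrongly, and a size of change is said to lie outside the interval where the counts of that contact leave no room for it.

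Contact between the Tsix side and the Xist side of the region differed by less than the counting error. The region was divided at the bin edge nearest the midpoint of Xist, so that the Tsix side ended at 100665000. Contacts between the sides had a level of 0.953 in the control from 4773 contacts and 0.962 in the depleted cells from 4088 contacts, a log2 ratio of 0.013 (-0.014 to 0.040). A rise of over 2.81% or a fall of over 0.964% lay outside that interval. Many of these bin pairs lie at 500 kb or more, where nearly all pairs are between the sides and the division holds their level near 1. With levels scaled to the map total instead, the interval was wider, at 0.003 (-0.056 to 0.063). Contacts between the sides made up 20.5% of all signal in the control and 20.6% in the depleted cells, a difference of 0.045 percentage points (-0.797 to 0.887). Within the Xist side the level went from 1.113 to 1.109, a log2 ratio of -0.005 (-0.046 to 0.035). Within the Tsix side, which had fewer contacts (4428 and 3645), it went from 0.927 to 0.910, a log2 ratio of -0.026 (-0.099 to 0.048), and a fall of over 6.66% lay outside the interval. All 3 intervals held 0.

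The same held when the sides were divided by separation. None of 14 combinations of side and separation had an interval without 0. The closest pairs between the sides, at 10 to 50 kb, had a level of 0.699 from 167 contacts in the control and 0.680 from 142 contacts in the depleted cells. Their log2 ratio was -0.041 (-0.394 to 0.310), so a rise of over 24.0% or a fall of over 23.9% lay outside the interval. At 50 to 100 kb the level was 0.564 and 0.549, from 205 and 176 contacts, a log2 ratio of -0.037 (-0.347 to 0.272). The narrowest interval was that of pairs between the sides at 500 kb or more, at -0.002 (-0.020 to 0.016). At that separation 5820 bin pairs lie between the sides and 210 within the Xist side. Division by the mean at equal separation thus holds the level between the sides near 1 in any map, and this value cannot show a change. At 100 to 250 kb contacts between the sides went from 0.792 to 0.843, a log2 ratio of 0.089 (-0.044 to 0.222). The share of signal by separation moved in 1 of 5 bands, that of 10 to 50 kb, which held 34.3% of the signal in the control and 35.6% in the depleted cells, higher by 1.32 percentage points (0.280 to 2.35). This share rests on the bin correction of the maps, since without any correction the difference was 0.770 points (-0.109 to 1.65).

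The Xist promoter made its strongest contacts with Ftx and Zcchc13, and both were alike in the 2 maps. Ftx is a noncoding RNA gene known to promote Xist expression, and Zcchc13 is a zinc finger gene next to it. With Zcchc13 the level was 4.75 in the control and 4.58 in the depleted cells, from 264 and 205 contacts, a log2 ratio of -0.052 (-0.330 to 0.224). With Ftx it was 2.90 and 3.03, from 557 and 482 contacts, a log2 ratio of 0.062 (-0.120 to 0.245), and a rise of over 18.5% or a fall of over 8.01% lay outside that interval. With the Jpx promoter, only a few bins away, the level was 0.840 and 0.878, a log2 ratio of 0.063 (-0.296 to 0.422). With the promoter of Rlim, whose protein is a ubiquitin ligase that promotes Xist expression, the level was 2.12 in the control and 2.07 in the depleted cells. That value rests on 26 and 21 contacts, and its log2 ratio of -0.034 (-0.932 to 0.848) leaves room for a rise of up to 80.0% and a fall of up to 47.6%.

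Across the border the Xist promoter stood below the average contact in both maps, with levels from 0.445 to 0.604. With the Tsix promoter its level was 0.558 and 0.604, from 55 and 47 contacts, a log2 ratio of 0.114 (-0.508 to 0.731). With Tsx, a gene next to Tsix, it was 0.501 and 0.584, and with Chic1 0.466 and 0.564, with log2 ratios of 0.222 (-0.362 to 0.807) and 0.275 (-0.315 to 0.862). With the homeobox gene Cdx4 it was 0.590 and 0.445, from 31 and 20 contacts, a log2 ratio of -0.408 (-1.32 to 0.475). With Nap1l2 it was 0.464 and 0.592 from 9 and 10 contacts, where rises of over 3.74-fold and falls of over 55.2% lay outside the interval. All 5 intervals held 0, and they were far wider than that of the side totals.

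The Jpx promoter followed the Xist promoter, whose window shares bins with its own. With Ftx its level was 2.90 in the control and 3.05 in the depleted cells, from 596 and 517 contacts, the deepest of the 24 promoter pairs. The log2 ratio was 0.073 (-0.104 to 0.249), and a rise of over 18.8% or a fall of over 6.95% lay outside the interval. With Zcchc13 the level was 3.81 and 3.48, a log2 ratio of -0.132 (-0.442 to 0.175). With Rlim it was 1.32 and 1.79 from only 16 and 17 contacts, a log2 ratio of 0.439 (-0.623 to 1.51). Across the border, the level with Chic1 was 0.402 and 0.576 from 43 and 49 contacts. Its log2 ratio of 0.519 (-0.124 to 1.16) was the highest among the promoter pairs with over 20 contacts in each map, and its interval held 0. With Tsix, Tsx and Cdx4 the levels were 0.381 and 0.336, 0.514 and 0.499, and 0.426 and 0.378, and all 3 intervals held 0. The least certain pair was that of Jpx with Nap1l2, where 6 and 9 contacts gave a log2 ratio of 0.81 (-0.92 to 2.66).

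The Tsix promoter lay at about the average contact with the genes of its own side. With Tsx the level was 1.2005 in the control and 1.13 in the depleted cells, from 203 and 170 contacts, a log2 ratio of -0.083 (-0.412 to 0.245). With Chic1 it was 1.06 and 0.839, from 168 and 123 contacts, a log2 ratio of -0.336 (-0.721 to 0.044). With Cdx4 it was 1.07 and 0.936, and with Nap1l2 1.07 and 0.664 from 18 and 9 contacts. On the other side, the level of the Tsix promoter with Ftx was 0.822 and 0.930, a log2 ratio of 0.178 (-0.273 to 0.628). With Zcchc13 it was 1.46 and 1.58, and with Rlim 1.02 and 1.68 from 9 and 14 contacts. The 4 values with its own side lie below the control, those with Xist, Ftx, Zcchc13 and Rlim above it and that with Jpx below it, and each of these intervals held 0.

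None of the 24 promoter pairs had an interval that excluded 0, and none of all 45 pairs of the 10 loci did. The promoter pairs stood above the control in 13 cases and below it in 11, with log2 ratios from -0.686 to 0.809 and a median of 0.063. For comparison, 2.08% of the 577 pairs of 30 kb blocks measured over the whole region were called higher and 1.73% lower, with a median log2 ratio of -0.035. Both a 2-fold rise and a 2-fold fall lay outside the interval in 15 of the 24 promoter pairs, and a 1.5-fold change either way did so in 6. Of the 13 promoter pairs across the border, 6 had intervals without a 2-fold change in either direction and 0 had intervals without a 1.5-fold change.

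**Figure D1:**
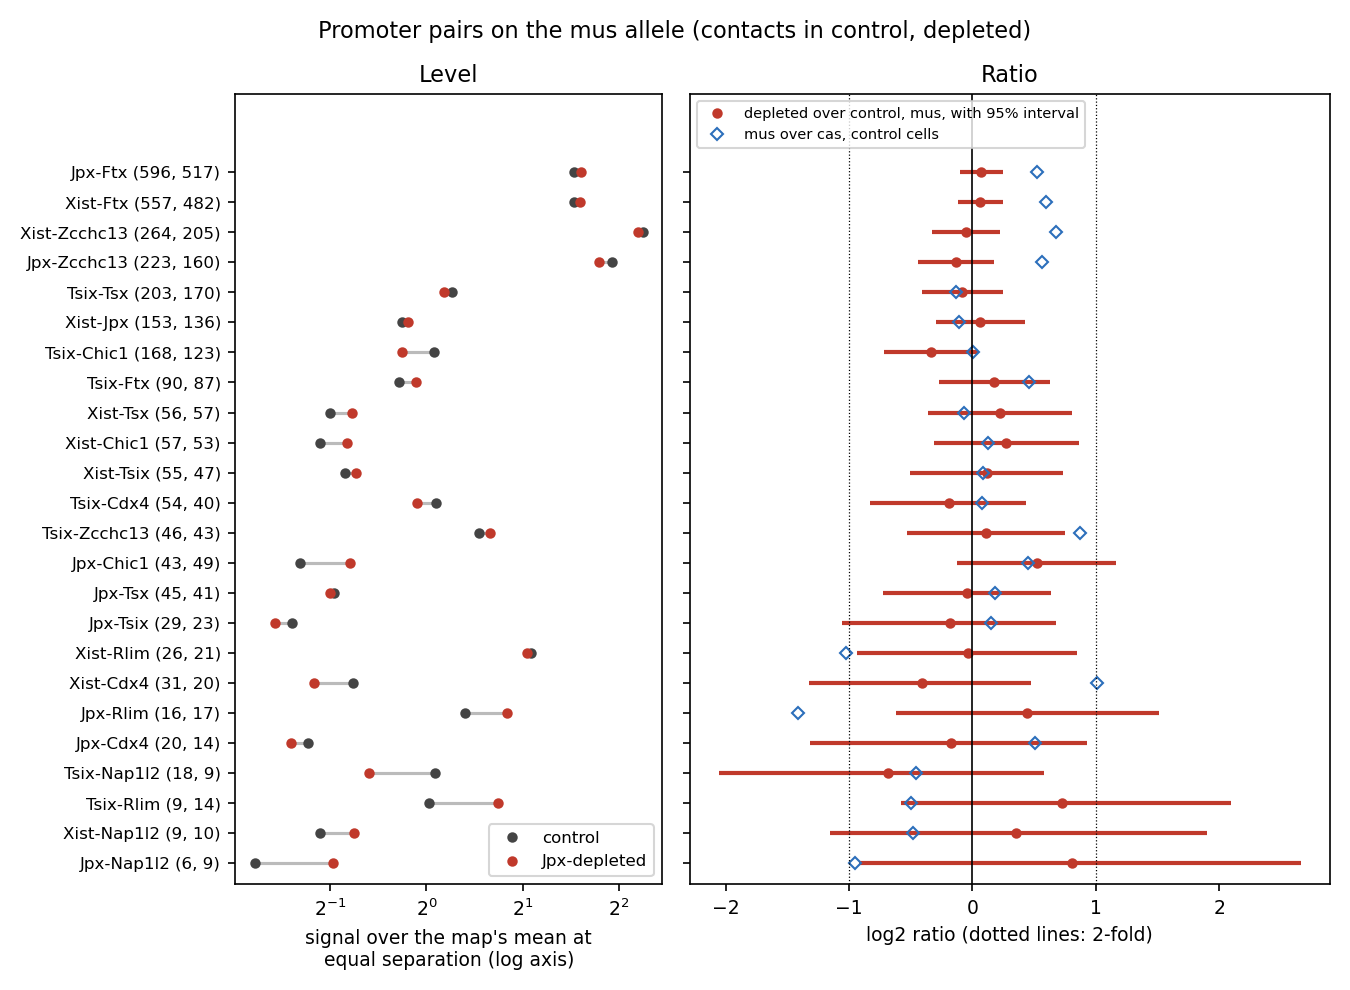
Left, the level of each of the 24 promoter pairs in the control and the depleted mus map (log axis), with the contacts in the 2 maps in brackets; right, the log2 ratio of depleted over control with its 95% interval for counting error, and open diamonds for mus over cas in control cells. Every interval crosses 0, and the intervals widen downward from 596 and 517 contacts for Jpx with Ftx to 6 and 9 for Jpx with Nap1l2.

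Summed over a whole side, the contacts of the promoters were more precise, and 1 of 8 such sums was called. The Tsix promoter with the Xist side had a level of 1.08 in the control from 547 contacts and 1.34 in the depleted cells from 535 contacts, higher by a log2 ratio of 0.305 (0.092 to 0.518). With its own side the Tsix promoter went from 1.14 to 0.968, a log2 ratio of -0.230 (-0.484 to 0.022). The value with the Xist side stayed above 0 with flanks of 5 kb, at 0.415 (0.121 to 0.710), and its interval held 0 with flanks of 20 kb, at 0.115 (-0.032 to 0.262), so the call depends on the size of the window. On cas, from the same libraries, it was 0.183 (-0.068 to 0.433), and the difference between the alleles was 0.122 (-0.206 to 0.451). The Xist promoter with the Tsix side had a level of 0.614 and 0.501, a log2 ratio of -0.294 (-0.616 to 0.027), and the Jpx promoter with the Tsix side 0.467 and 0.397, a log2 ratio of -0.234 (-0.608 to 0.140). With the Xist side they had log2 ratios of 0.082 (-0.057 to 0.221) and 0.054 (-0.088 to 0.196).

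Along the region each of the 3 promoters had its highest level in the same block in both maps, by a narrow margin in some. The Xist promoter peaked in the block of Ftx and Zcchc13 that starts at 100815001, at 4.38 in the control and 4.24 in the depleted cells. The Jpx promoter peaked in the block of Ftx at 100785001, at 3.65 and 3.71, and the Tsix promoter in the block at 100875001, at 2.44 and 2.13. Of the 99 blocks with a ratio, 5 or 5.05% were called. None of the 34 of Xist was among them. The first of the 2 of Jpx was the block at 100695001, lower at 1.59 and 1.27 from 408 and 281 contacts (log2 ratio -0.322, -0.562 to -0.083). It follows the block that holds the Jpx promoter, at 100665001, whose own interval held 0 (0.063, -0.296 to 0.422). The other was the block at 101205001, higher with 7 and 17 contacts. The 3 of Tsix were the Chic1 block at 100575001, lower at 1.204 and 0.879 (log2 ratio -0.454, -0.898 to -0.017), and the blocks at 100395001 and 101115001, higher with 11 and 22 and with 8 and 15 contacts.

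**Figure D2:**
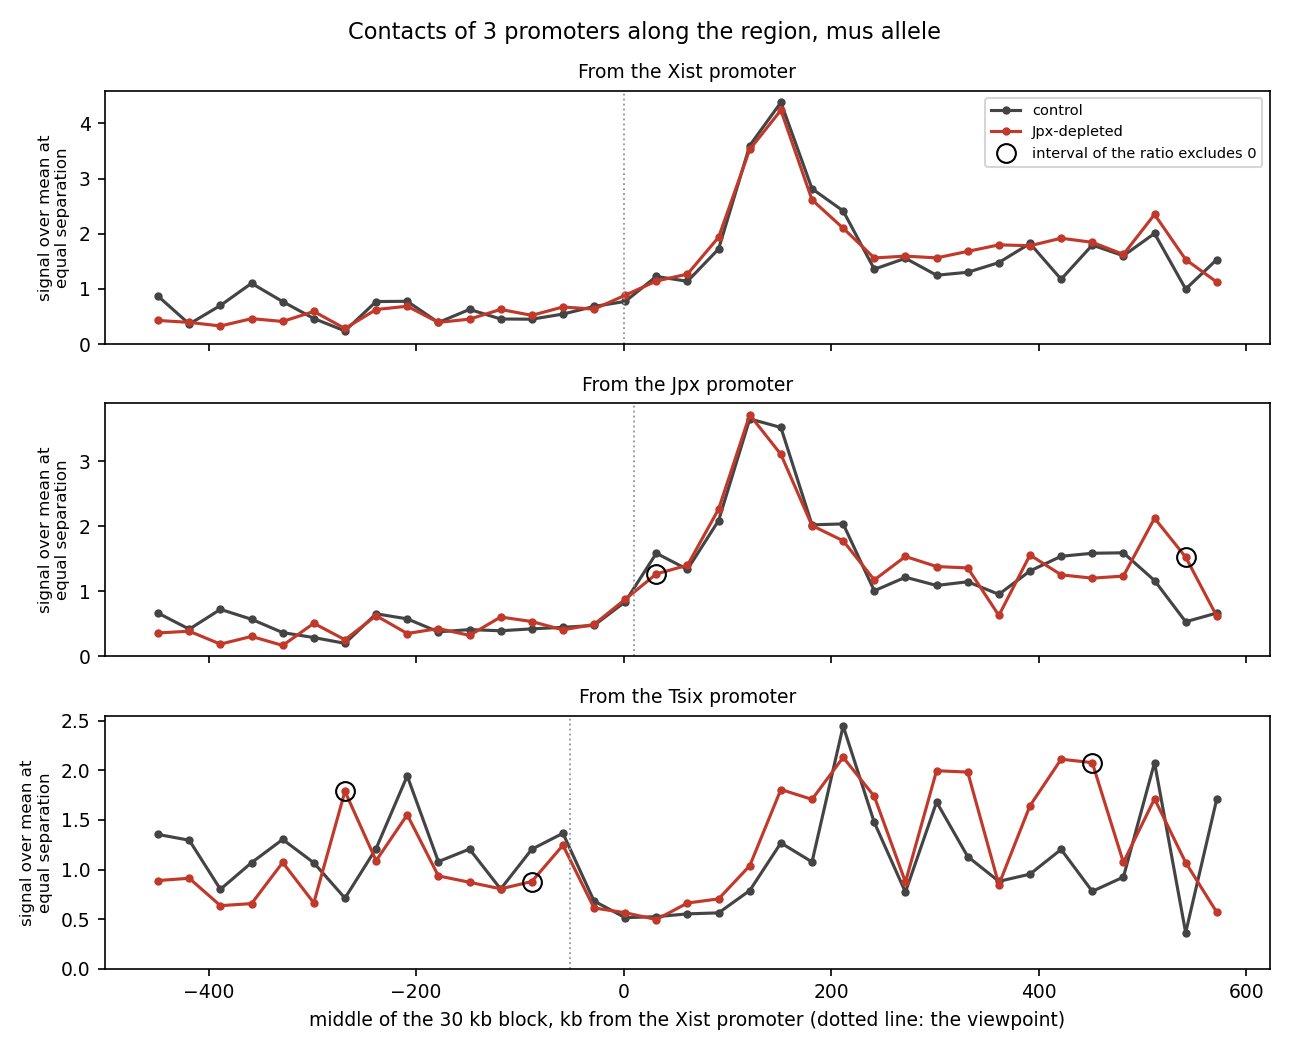
The level of contact from each of the 3 promoters to each 30 kb block, by distance in kb from the Xist promoter, in the control and the depleted mus map, with a ring where the interval of the ratio excludes 0. The lines peak in the same blocks in both maps for all 3 promoters, narrowly so for Jpx in the control and for Tsix in the depleted map. Ringed blocks number 0, 2 and 3.

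The border was read as the contact between the 100 kb on either side of each position, where a low value marks a position that few contacts cross. The lowest value in the control was 0.500, in the bin at 100650001, and the lowest in the depleted cells was 0.522, in the next bin at 100655001, the first just outside the end of the Xist gene and the second mostly inside it. At the Xist promoter the value was 0.623 in the control from 596 contacts and 0.626 in the depleted cells from 519, a log2 ratio of 0.008 (-0.190 to 0.205). At the Jpx promoter it was 0.761 and 0.831, a log2 ratio of 0.127 (-0.043 to 0.297), and at the Tsix promoter 0.559 and 0.613, a log2 ratio of 0.134 (-0.084 to 0.352). The most crossed position, between Jpx and Ftx in the bin at 100750001, had 2.15 and 2.27, a log2 ratio of 0.079 (-0.016 to 0.175). A 1.5-fold change in either direction lay outside the interval at all 170 positions.

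Fewer contacts crossed the Chic1 promoter and a stretch before Cdx4 in the depleted cells. Positions called lower were 11 of 170, or 6.47%, in 3 runs from 100480001 to 100505000, from 100535001 to 100560000 and in the bin at 100565001, and neighbouring positions share most of their contacts. Cdx4 lies between the first 2 runs, and at its promoter the log2 ratio was -0.100 (-0.303 to 0.102). At the Chic1 promoter, at 100551815, the value was 1.19 in the control from 656 contacts and 0.976 in the depleted cells from 465, a log2 ratio of -0.286 (-0.468 to -0.105). On the cas allele of the same libraries the value there was also lower, at -0.140 (-0.273 to -0.007). The Chic1 value depended on the window, at -0.138 (-0.444 to 0.166) with 50 kb on each side and -0.132 (-0.265 to -0.0003) with 200 kb, and it was called in the 7 other settings. The largest drop of the other run was -0.297 (-0.525 to -0.071) in the bin at 100490001, where cas gave 0.034 (-0.112 to 0.180). Positions called higher were 3 single bins, or 1.76%, at 100950001, 100975001 and 100990001, with log2 ratios of 0.149, 0.135 and 0.158. All lie between Zcchc13 and Rlim. The split of 3 higher and 11 lower positions turned to 12 higher and 10 lower in maps balanced to equal bin totals, and to 0 higher and 12 lower as contacts over expected contacts.

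**Figure D3:**
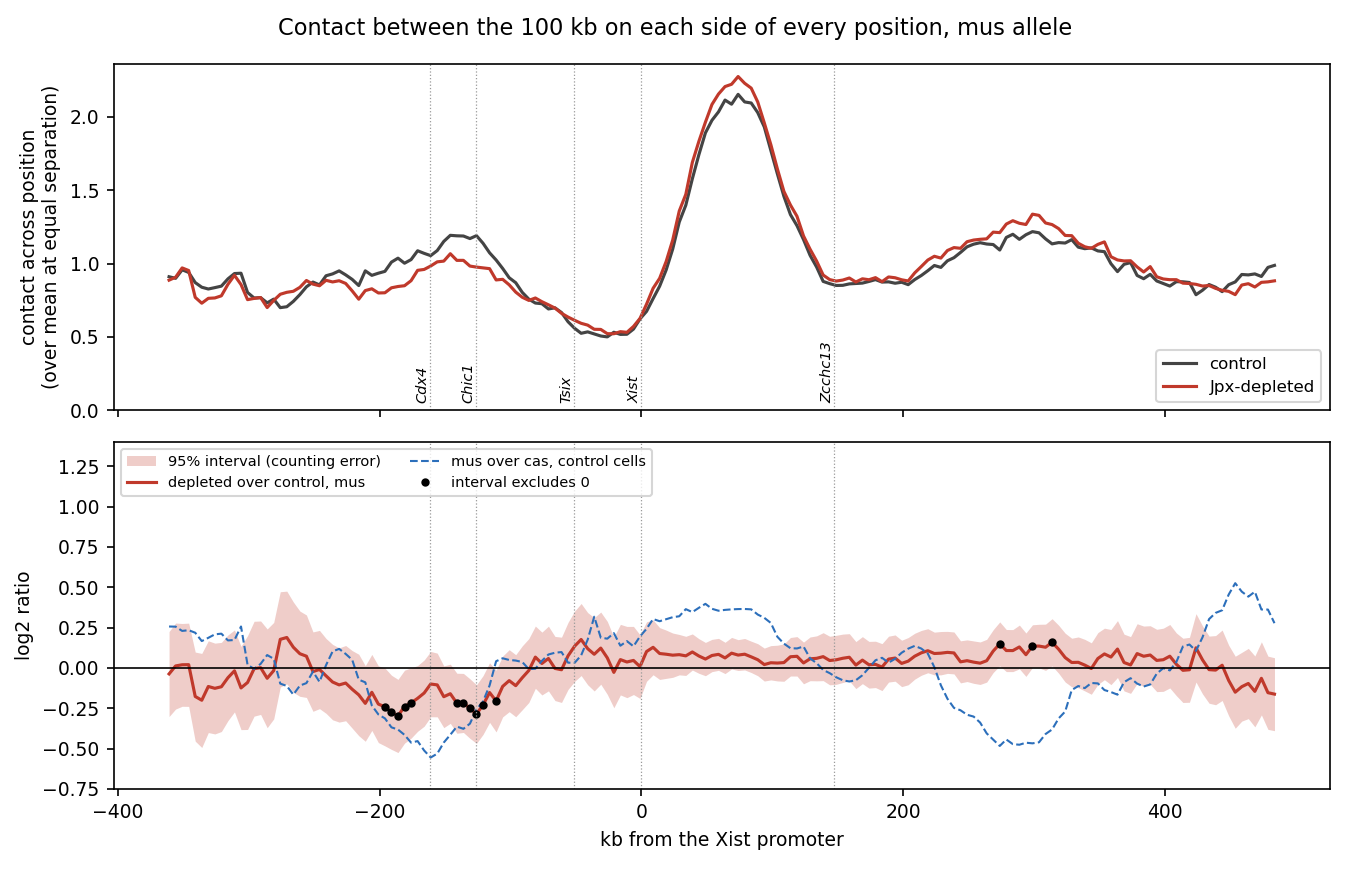
Top, contact between the 100 kb on either side of each of 170 positions in the control and the depleted mus map, by distance in kb from the Xist promoter; bottom, the log2 ratio of depleted over control with its 95% interval for counting error, dots where it excludes 0, and a dashed line for mus over cas in control cells. Both maps dip to 0.500 and 0.522 between Tsix and Xist, and the 11 lower positions lie before Cdx4 and at the start of Chic1.

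Over the whole region, 577 of 630 pairs of 30 kb blocks had over 3 contacts in both maps, and 22 of them were called, 12 higher and 10 lower. That is 3.81%, where such intervals leave at most about 5% outside when nothing differs, and less at low counts. The split was 7 higher and 9 lower with levels scaled to the map total, 12 higher and 15 lower without bin correction, and 20 higher and 7 lower with blocks of 15 kb. The share called was above 5% in 50 kb blocks, at 6.93% of 231 (9 higher and 7 lower). It was 5.20% in maps balanced to equal bin totals (14 higher and 16 lower). The 22 pairs fell in all parts of the region, 6 within the Tsix side, 7 within the Xist side and 9 between the sides. Among the lower was the pair at 100245001 and 101235001 (9 and 5 contacts, separated by 990 kb). Its interval is narrowed by the division by the mean at equal separation, so this call does not rest on depth alone. Changes past 2-fold were seen in 43 block pairs, or 7.45%, and 17 of the 460 pairs with at least 20 contacts in the 2 maps together were among them. The 3 lowest of those 460 were the pair of blocks at 100335001 and 101055001 (18 and 4 contacts, log2 ratio -2.28, -4.36 to -0.66), the Rlim block at 101145001 with the one at 101235001 (26 and 6 contacts, -1.68, -3.27 to -0.35), and the pair at 100845001 and 101115001 (26 and 8 contacts, -1.59, -3.03 to -0.35). The 3 highest were the pair at 100455001 and 100845001 (10 and 20 contacts, 1.498, 0.34 to 2.75), that of Nap1l2 at 100365001 with 101085001 (8 and 15 contacts, 1.26, -0.08 to 2.72), and that at 100215001 and 100395001 (12 and 23 contacts, 1.25, 0.19 to 2.39). None of these 6 pairs holds Xist, Jpx or Tsix.

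Of the 22 called pairs, 11 hold at least 1 of the 10 loci, 6 of them higher and 5 lower. They were chosen by their values on mus, so these are given as a description. The Ftx block at 100785001 with the neighbouring block of Ftx and Zcchc13 went from 0.831 to 0.593, from 213 and 129 contacts, a log2 ratio of -0.488 (-0.846 to -0.136). The Chic1 block at 100575001 with that of Tsx and Tsix at 100605001 went from 1.30 to 1.00, from 205 and 163 contacts, a log2 ratio of -0.374 (-0.712 to -0.038). The block at 100635001, which holds parts of Tsix and Xist, was higher with Ftx, from 49 and 61 contacts (0.611, 0.047 to 1.18), and lower with the Rlim block at 101145001, from 19 and 6 contacts (-1.40, -2.97 to -0.05). The Jpx block at 100695001 was higher with the other Rlim block, at 101175001, from 25 and 34 contacts (0.873, 0.085 to 1.68). Together with the pair of the block at 101145001 given above, the 3 called pairs of Rlim were 1 higher and 2 lower, on few contacts in each. The Jpx block was also lower with the block at 101085001, from 34 and 10 contacts (-1.38, -2.61 to -0.29). The block of Tsx and Tsix was higher with the block at 100965001, from 46 and 54 contacts (0.631, 0.033 to 1.23), and the Chic1 block at 100545001 with the one at 100875001, from 36 and 50 contacts (0.701, 0.056 to 1.36). The Cdx4 block at 100515001 was higher with the one at 100905001, from 18 and 32 contacts (1.24, 0.36 to 2.18), and the Nap1l2 block at 100365001 with the one at 100275001, from 27 and 38 contacts (0.872, 0.085 to 1.68). The effect on mus minus that on cas had an interval without 0 in 9 of the 11, against 19 of all 545 block pairs, or 3.49%. Choosing the 11 by their values on mus raises that count by itself. The pair of Chic1 with Tsx and Tsix was the 1 that was also called on cas, where it was higher, at 0.398 (0.111 to 0.686). Only 6 of the 22 calls were made under all 7 other ways of computing the levels. One of these ways keeps only separations of 50 kb or more, which removes most bin pairs of neighbouring blocks. With that way left aside, 7 of the 22 were called throughout.

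**Figure D4:**
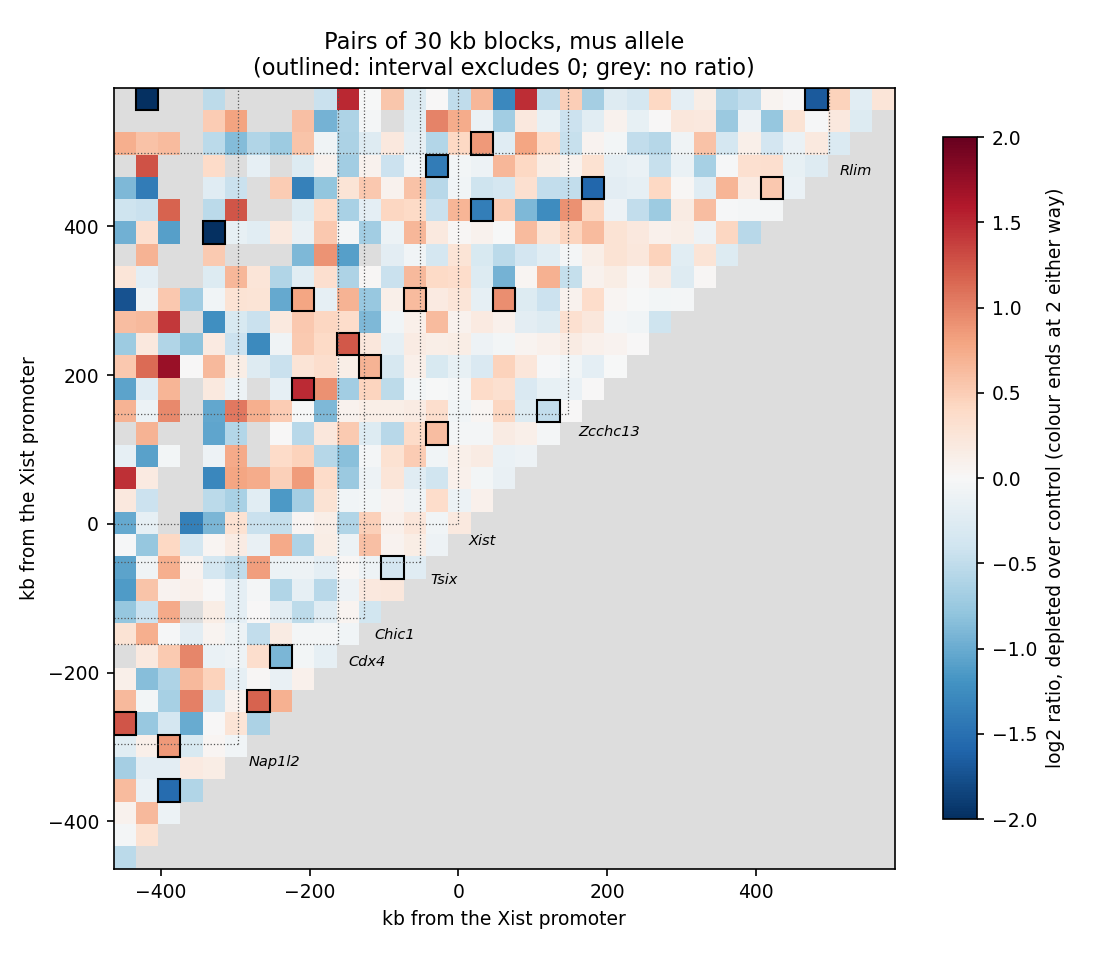
Log2 ratio of depleted over control for each pair of 30 kb blocks on the mus allele, both axes in kb from the Xist promoter, with red for higher, blue for lower, grey where a map holds 3 contacts or fewer, and outlines where the interval excludes 0. The 22 outlined pairs are scattered, with 9 between the sides and none holds the block of the Xist promoter.

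How large a change each contact could reveal followed from its depth. With equal rates in both maps, a contact needed 21 counts in the control map for a 2-fold change to lie outside its interval in both directions, 57 for a 1.5-fold change and 179 for a 1.25-fold change. Single pairs of 5 kb bins almost never reached this, and 15 of 21661, or 0.069%, had an interval without a 2-fold change in either direction. Of 30 kb block pairs 28.1% did, 76.8% of those separated by 10 to 50 kb and 0 of the 171 separated by 500 kb or more. Of 50 kb block pairs 63.2% did. The depth of this allele thus bounds the contacts of the Xist and Jpx promoters with Ftx closely, at rises of 18.5% to 18.8%. For the Tsix promoter with Ftx that limit was 54.6%. The same depth leaves 2-fold changes of nearly all single bin pairs undetectable. The limit of 2.81% for a rise of the total between the sides rests in part on the division by the mean at equal separation, and not on depth alone. Pairs between the sides at 10 to 50 kb left room for a rise of up to 24.0%.

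**Figure D5:**
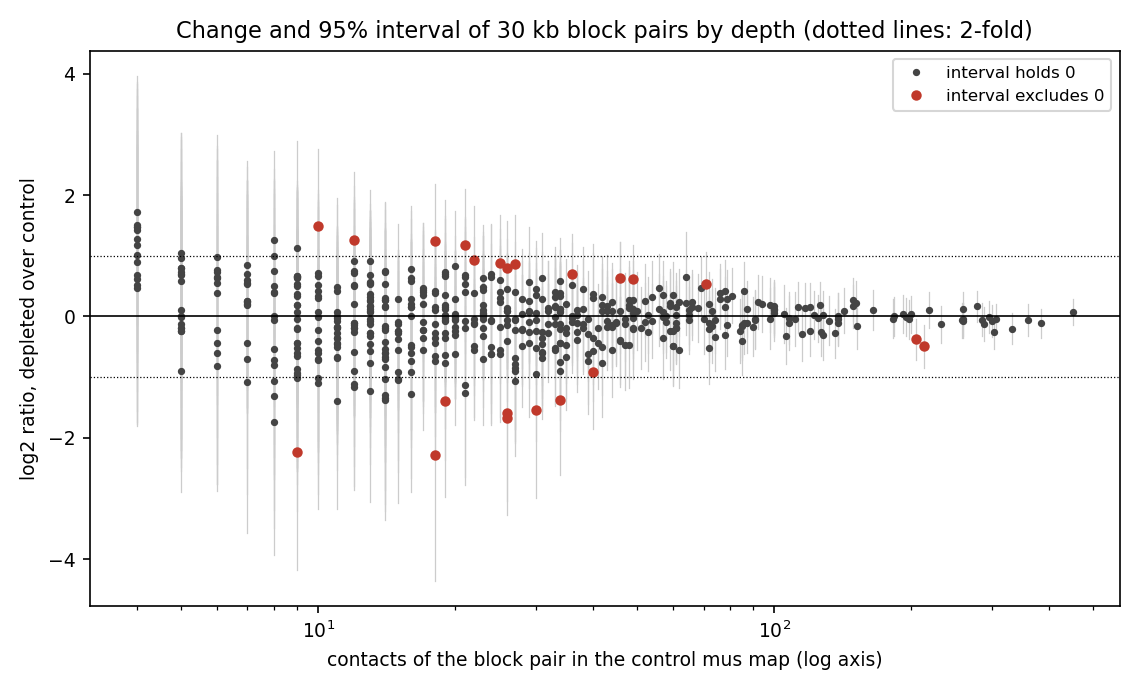
Log2 ratio of depleted over control for each of 577 pairs of 30 kb blocks against its contacts in the control mus map (log axis), with grey bars for the 95% interval. Ratios past 2-fold occur up to 34 contacts and not above, and the 22 called pairs range from 9 to 213 contacts. The interval of the called pair at 9 contacts is narrowed by the division by the mean at equal separation.

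Differences between the alleles and between days give a scale for these limits. In control cells, contact between the sides was higher on mus than on cas by a log2 ratio of 0.190 (0.164 to 0.216), and in the maps of all reads day 4 exceeded day 0 by 0.261 (0.243 to 0.278). The depletion value of 0.013 (-0.014 to 0.040) holds neither size. These comparisons share the control mus map with the depletion, or come from other cells, so only their sizes are set side by side. Of the 9 promoter pairs that differed between the alleles in control cells, a move of mus to the cas level lay outside the depletion interval in 7. The Xist promoter with Zcchc13 differed by 0.680 (0.410 to 0.951) between the alleles, against -0.052 (-0.330 to 0.224) on depletion, and with Ftx by 0.596 (0.416 to 0.776), against 0.062 (-0.120 to 0.245). Of the 16 promoter pairs that differed between day 0 and day 4, a return of that size lay outside the depletion interval in 9. With the same calls, 15.2% of block pairs differed between the alleles in control cells and 36.5% between day 0 and day 4, against 3.81% on depletion. Both comparisons were deeper than the depletion, with 58199 and 160958 contacts in the 2 maps against 45492, so the shares are not at equal depth.

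The depletion values of mus were also set against those of cas, which come from the same 4 libraries. Between the sides the log2 ratio was 0.014 on cas, and the difference of mus minus cas was -0.001 (-0.038 to 0.037). Of the 45 pairs of loci, 44 had a ratio on cas, since Nap1l2 with Rlim had too few contacts there. None of the 44 was called on cas, and the difference between the alleles was called in 1, Chic1 with Tsx, at -0.375 (-0.741 to -0.010). There the level on mus was 1.09 in the control and 0.941 in the depleted cells, and neither allele was called by itself. For block pairs the difference was called in 19 of 545, or 3.49%. The Tsix promoter with its own side had a difference of -0.335 (-0.652 to -0.018), with -0.230 on mus and 0.105 on cas, each with an interval that held 0. No difference between the alleles in the total contact across the border was thus detectable at this depth. One of over 0.038 on the log2 scale lay outside the interval of levels divided by the mean at equal separation. With levels scaled to the map total the interval was wider, at -0.003 (-0.086 to 0.080).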

How the data were processed

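Per the labels' protocols, in situ Hi-C libraries cut with MboI were enriched with 120 bp probes, amplified with 12 PCR cycles and sequenced as pairs of 50 bp. The authors deposited a signal for each pair of 5 kb bins, and the positions of 1067 probes (mm9), of which 97.0% lie within 100 bases of a GATC. The submitters' processing notes name, without roles, Juicer 1.5.3, HOMER 4.8, Novoalign 3.00.02 and cutadapt 1.2.1. The sources used here give no method for the correction, duplicate removal or allele assignment, so these are not stated.

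From the deposited signal, whole contacts were recovered by dividing out 1 factor per bin. In the control and depleted mus maps 100% and 99.99% of values came out whole within 0.01. Intervals are binomial (Clopper-Pearson) limits at 95%, with bin factors held fixed and the expected value estimated from the same map. The limits use effective contacts, the number of contacts that would give the counting variance of a level, and not the contacts printed. These can differ widely, as for the blocks at 100245001 and 101235001, where 9 control contacts entered as 73.7. The interval for the difference of mus and cas combines their limits on the log scale. They were tested on simulated data. No ratio was called at 3 contacts or fewer in a map.

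Promoters of Xist, Jpx, Tsix and Rlim and bodies of 6 other genes (GENCODE, mm9, under the names B230206F22Rik for Ftx and Enox for Jpx) were taken with 10 kb to each side. Pairs of Xist, Jpx and Tsix, other pairs whose interval excludes 0, and the 3 highest and 3 lowest 30 kb block pairs with at least 20 contacts were named. The loci and tests were chosen with earlier results of these data known. Alternatives are given in the closing section. Python 3.11.15, numpy 2.4.6, scipy 1.17.1 and matplotlib 3.10.9 were used. The day 7 map of all reads was not used here.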

Additional observations from a re-analysis of the deposited data

Results flagged for a closer look

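The depletion effect differed between mus and cas, by the interval of the difference itself, in 1 pair of loci. It also did so in 3 of the block pairs named above as the 3 highest and 3 lowest. Chic1 with Tsx had a log2 ratio on mus minus that on cas of -0.375 (-0.741 to -0.010). The block pair at 100335001 and 101055001 had a difference of -3.14 (-5.55 to -1.14), with 18 and 4 contacts on mus and 11 and 15 on cas. The Rlim block at 101145001 with that at 101235001 had a difference of -1.79 (-3.57 to -0.24), with 26 and 6 contacts on mus and 31 and 29 on cas. The pair at 100845001 and 101115001 had a difference of -1.64 (-3.20 to -0.27), with 26 and 8 contacts on mus and 56 and 49 on cas. These 3 block pairs were named for their low values on mus, so their difference from cas is a description. Among all 22 block pairs called on mus, 12 had such a difference, and over all 545 block pairs with a value on both alleles 3.49% did.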

How the results depend on the processing

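No paired analysis was possible because the 2 libraries of each condition are combined in 1 map, and for the same reason no library could be left out. The contact between the sides ranged from -0.005 to 0.029 over 8 other settings (levels scaled to the map total, low bins left out, contacts over expected contacts, no bin correction, separations of 50 kb or more, bins with a probe only, balanced maps, a division at the Tsix promoter), and its interval held 0 in each. The values at the Xist, Jpx and Tsix promoters ranged from -0.013 to 0.134, from 0.016 to 0.141 and from -0.025 to 0.234 over 9 settings, with no change of call. The count of called promoter pairs was 1 with flanks of 20 kb, where Xist with Chic1 was higher at 0.423 (0.040 to 0.806), and 0 under the other 8 settings. Of 210 values of single promoter pairs, 209 had intervals that held 0, as at first. The called block pairs numbered 16 to 30, and their share of those measured ranged from 2.35% with blocks of 15 kb to 6.93% with blocks of 50 kb. The called positions numbered 10 to 22, and were 22 in balanced maps (12 higher and 10 lower), where 14 were called at first (3 higher and 11 lower). As a share of the positions measured they were 8.24% at first, and from 5.88% to 13.8% under the other settings. All of these are above 5%, but neighbouring positions share most of their contacts and are not separate counts. Chosen after the data were seen, the contact of Tsix with the Xist side was called in 8 of 9 settings and the share at 10 to 50 kb in 2 of 5. Depth limits single bin pairs and contacts at 500 kb or more, and the intervals omit the spread between libraries, PCR copies and the error of the bin factors.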
